A study of Mus musculus with 10 samples.

Results

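Leukocyte genes were followed in pancreatic islets, the clusters of hormone-secreting cells in the pancreas, from C57BL/6 mice that received either REGN1193, which blocks the receptor for glucagon (5 libraries), or an isotype control antibody (5 libraries). The set holds 29 genes chosen by symbol: 3 expressed by leukocytes in general, 11 of macrophages and other myeloid cells, 4 of antigen presentation, 6 of T cells, 3 of B cells, and the signals Il6 and Cxcl9. All 29 were present among the 24475 genes of the expression table, and 26 passed a minimum mean of 0.5 RPKM over the 10 libraries (RPKM, reads per kilobase of transcript, scaled to the mapped reads of the library). The comparison sets islets of mice given the blocking antibody against islets of mice given the control antibody. Whether the receptor was blocked in the islets themselves was not measured here. Libraries are called by the number in their label, 1 to 5 for the receptor-blocking antibody and 6 to 10 for the isotype control. The labels give no dose, duration, age or sex, and are silent on whether the libraries are separate animals; the p-values hold only for the spread among these 10 libraries.

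Islets are not made of endocrine cells alone. Macrophages live in healthy islets, where they engulf debris through complement and Fc receptors and show peptides on MHC class II molecules. Lymphocytes are sparse in healthy islets, and T and B cells enter them in autoimmune diabetes. T cells carry the CD3 signalling chains beside their antigen receptor, and B cells carry CD79A and CD79B beside surface antibody. Interleukin 6 is an inflammatory cytokine that acts on many cells, alpha cells among them, and CXCL9 is a chemokine that draws T cells after exposure to interferon gamma.

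The libraries were estimated from the steps of their low values to hold 14.5 to 17.9 megareads with the antibody and 12.3 to 14.8 megareads with the isotype control. The islet hormone and granule genes summed to between 283825 and 494716 RPKM in every library, so the tissue label was met by its defining transcripts. Across the transcriptome 53 of 13450 tested genes rose and 2 fell with the antibody (limma on log2(RPKM + 0.5), Benjamini-Hochberg adjusted p under 0.05), which is 0.394% and 0.0149% of the tested genes and 0.409% in all.

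None of the 26 tested leukocyte genes passed that threshold (0.409% of all tested genes did), and in none of the 29 did the antibody libraries separate from the isotype libraries, which happened in 1.99% of all tested genes. Their adjusted limma p ran from 0.716 for Cd2 to 0.998 for Aif1. At an unadjusted limma p under 0.05 the count was 0 of 26, against 7.02% of all tested genes (2.84% higher and 4.18% lower), and the smallest two-sided exact permutation p among the 29 was 0.0873 (Cd2; the test allows 0.00794 at the least). Over the 26 genes the log2 fold changes had a median of 0.12, beside -0.07 for all tested genes, with 19 folds above 0 and 7 below. Of all 13450 tested genes, 4512 had a fold above 0. The count of 19 depended on single libraries: it was 12 of 26 without isotype replicate 9 and 25 of 26 without antibody replicate 4. The fold changes are wide estimates: the 95% interval reached 0.56 to either side of the log2 fold change in C1qa, the most precise gene, and 1.7 to either side in Cxcl9, the least precise. The interval reached a log2 fold change of 1 or -1 in 22 genes, and both in 8, so equal levels were not shown. In whole islets, fewer cells of a type and less RNA per cell cannot be told apart.

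**Figure D1:**
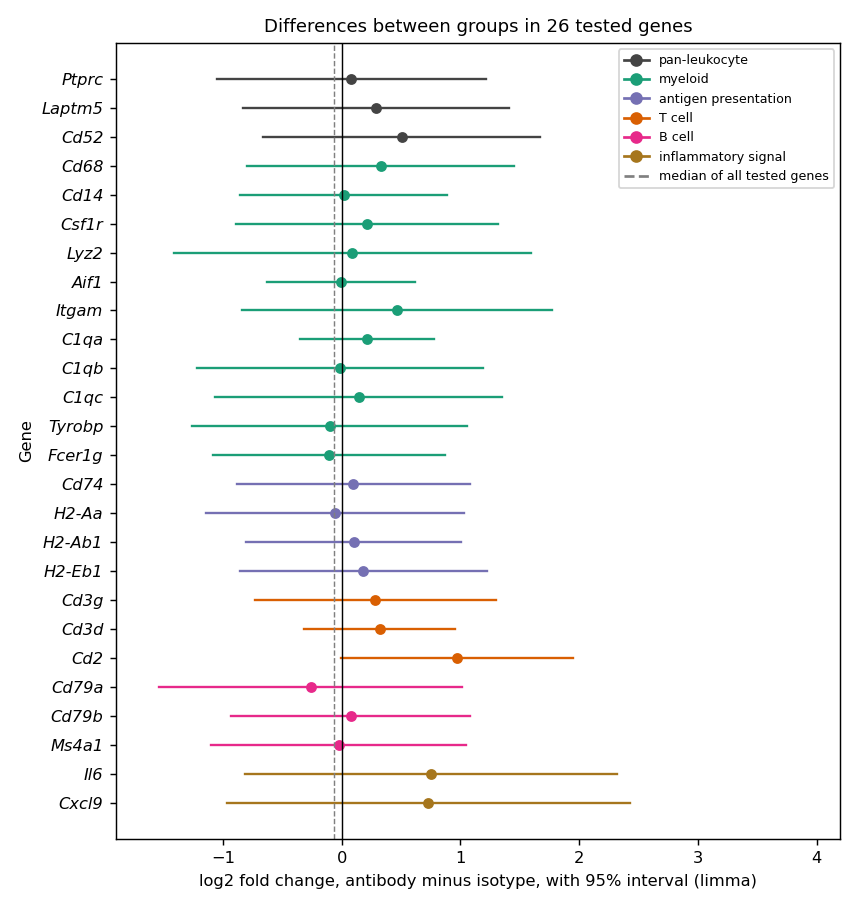
The log2 fold change (antibody minus isotype, x axis) of each of the 26 tested leukocyte genes is shown as a point with its 95% interval from limma, coloured by subgroup; the dashed line is the median of all tested genes. All 26 intervals cross 0, and Cd2 comes nearest to lying above it.

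What the genes did show was a large spread between libraries of the same group, in 2 patterns that ran along the subgroups. The myeloid genes were high in antibody replicate 2 and isotype replicate 8 and low in antibody replicate 4. The T cell, B cell and class II genes and the inflammatory signals were high in antibody replicate 5. Each pattern is described below with its genes, and the heat map of leukocyte genes by library shows both.

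**Figure D2:**
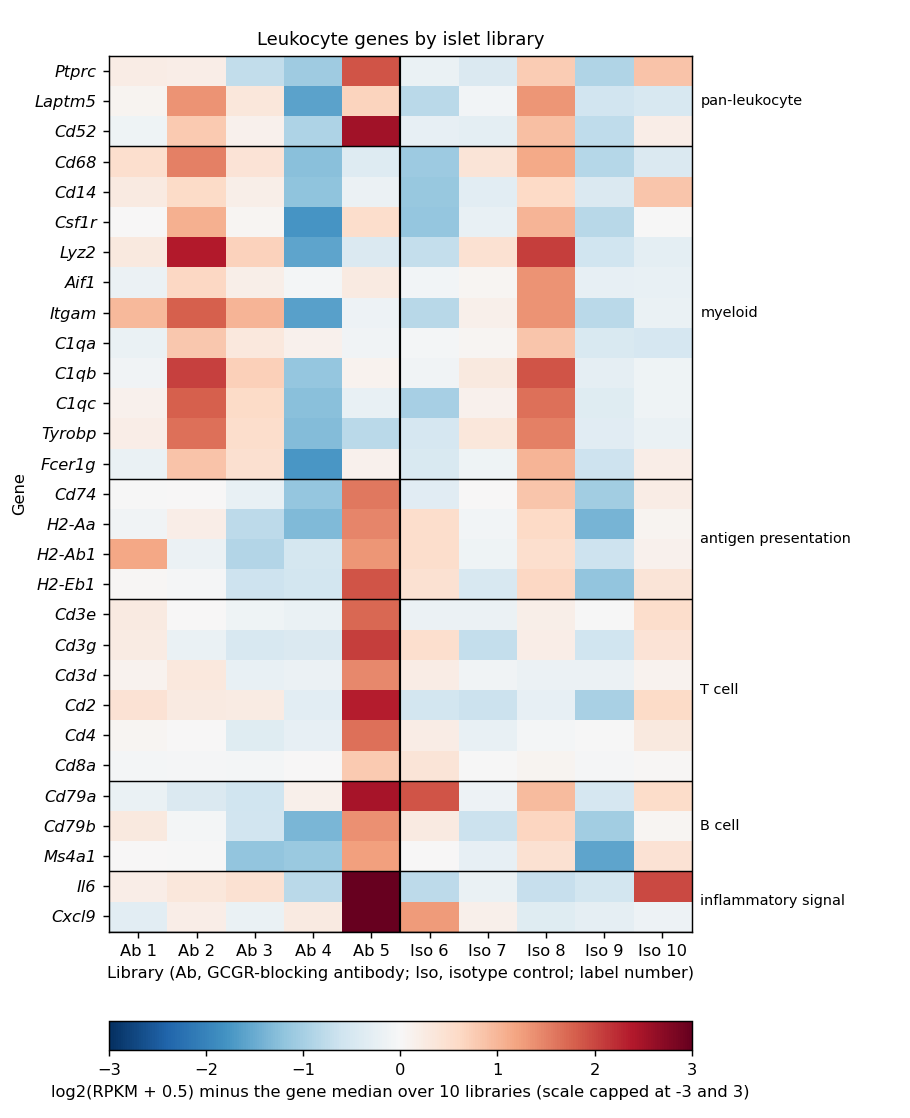
Each cell gives log2(RPKM + 0.5) of a gene (rows, by subgroup) in a library (columns; Ab, receptor-blocking antibody; Iso, isotype control) minus that gene's median over the 10 libraries, with colours capped at -3 and 3. The myeloid block is red in Ab 2 and Iso 8, while the antigen presentation, T cell, B cell and inflammatory signal blocks are red in Ab 5.

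Lyz2, the lysozyme of macrophages and neutrophils, had the highest mean of the set at 175 RPKM. It stood at 128, 541, 169, 34.5 and 77.5 RPKM in antibody replicates 1 to 5 and at 63.1, 143, 441, 68.6 and 84.2 RPKM in isotype replicates 6 to 10. One library of each group was thus far above its group, and the ranges overlapped nearly whole. The log2 fold change was 0.09 (SE 0.69, adjusted p = 0.991 by limma). Cd68, a lysosomal protein of macrophages, gave 22.2, 45.3, 20.8, 6.30 and 11.7 RPKM with the antibody and 7.07, 20.7, 35.0, 8.34 and 11.3 RPKM with the isotype control, with the same libraries on top. Its log2 fold change was 0.33 (SE 0.52, adjusted p = 0.934 by limma).

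The signalling adaptors followed. Tyrobp, the adaptor DAP12 that couples activating receptors of myeloid and NK cells, stood at 19.6, 54.6, 24.5, 6.52 and 9.44 RPKM with the antibody and at 11.8, 21.4, 49.1, 13.2 and 14.6 RPKM with the isotype control (log2 fold change -0.10, SE 0.53, adjusted p = 0.986 by limma). Fcer1g, the common gamma chain of Fc receptors, ran from 3.01 to 20.8 RPKM with the antibody and from 7.24 to 23.7 RPKM with the isotype control. Both had their lowest value in antibody replicate 4 and their top pair in antibody replicate 2 and isotype replicate 8. The receptor genes were lower in level. Csf1r, the receptor for the growth factors that keep macrophages alive, ran from 0.881 to 9.26 RPKM, Itgam, the integrin CD11b, from 0.292 to 8.01 RPKM, and Cd14, a co-receptor for bacterial lipopolysaccharide, from 1.07 to 5.89 RPKM over all libraries. Cd14 was the 1 myeloid gene whose highest library was isotype replicate 10. Aif1, the macrophage protein IBA1, ran from 1.38 to 5.16 RPKM, with isotype replicate 8 alone well above the rest.

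Counted over the 11 myeloid genes, antibody replicate 2 and isotype replicate 8 were the top pair in 10, and antibody replicate 4 was the lowest library in 9. Over all tested genes that pair was on top in 3.80% and antibody replicate 4 was lowest in 14.4%. The level of isotype replicate 8 over the median of the other isotype libraries ran from 2.12 in C1qa to 5.76 in Lyz2, with a median of 3.54. The same ratio of antibody replicate 2 to the other antibody libraries ran from 1.54 in Cd14 to 5.26 in Lyz2, with a median of 2.69. A list of 36 other macrophage genes behaved in the same way: of 32 tested, 20 had this top pair and 22 were lowest in antibody replicate 4. Among them Adgre1, the F4/80 antigen, reached 4.92 RPKM in antibody replicate 2 and 4.38 RPKM in isotype replicate 8, against 0.356 to 2.15 RPKM in the other 8 libraries. Ctss, the class II processing protease cathepsin S, reached 110.0 and 97.5 RPKM in that pair against 7.80 to 41.9 RPKM elsewhere; these 2 genes were picked for display after their values were seen.

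Other cells moved with that pattern. A list of 15 mesenchymal and Schwann cell genes summed to 186 RPKM in antibody replicate 2 and 176 RPKM in isotype replicate 8, against 19.2 to 79.5 RPKM in the other libraries, and 8 of its 13 tested genes had the same top pair. None of its genes was at 0 in any library. Their part in the myeloid pattern was not tested.

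Between the groups, the tested macrophage list had a median log2 fold change of 0.18. Lyve1, a hyaluronan receptor (log2 fold change -0.32, SE 0.20), and Cx3cr1, the fractalkine receptor (-0.40, SE 0.33), did not pass (adjusted p = 0.805 and 0.863 by limma).

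C1q, the recognition molecule that starts the classical complement cascade, is assembled from the products of C1qa, C1qb and C1qc, which lie side by side on chromosome 4 (GRCm38.p6; C1qb from 136880126 to 136886200, C1qc from 136889801 to 136892936, C1qa from 136895916 to 136898844). C1qb stood at 10.8, 49.9, 19.3, 4.89 and 12.4 RPKM with the antibody and at 10.8, 14.4, 44.1, 9.48 and 10.5 RPKM with the isotype control. C1qc tracked it from 4.34 to 39.4 RPKM. C1qa was flatter, at 25.6, 52.2, 37.1, 32.6 and 27.3 RPKM with the antibody and 28.6, 30.6, 53.1, 21.5 and 20.8 RPKM with the isotype control. Its highest library exceeded its lowest 2.55-fold, against 10.2-fold for C1qb and 9.08-fold for C1qc. The ratio of C1qa to C1qb ran from 1.05 in antibody replicate 2 to 6.66 in antibody replicate 4. These were the highest and the lowest library of C1qb itself, so the ratio restates the flatter level of C1qa. The ratio of C1qb to C1qc ran from 0.887 to 2.04. No other gene of the RefSeq table overlapped C1qa. The log2 fold changes were 0.21 (SE 0.26) for C1qa, -0.02 (SE 0.55) for C1qb and 0.14 (SE 0.55) for C1qc (adjusted p = 0.906, 0.998 and 0.978 by limma).

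**Figure D3:**
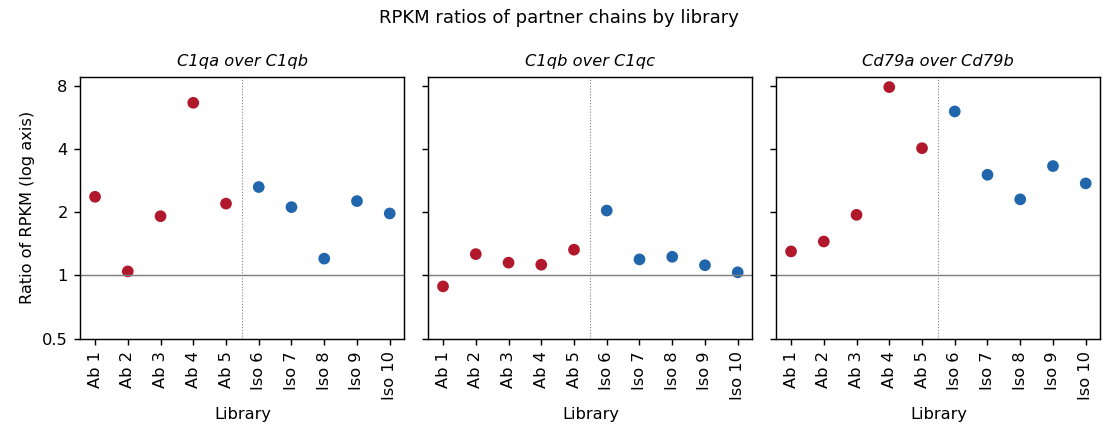
The RPKM ratio of genes whose proteins form one complex is plotted on a log axis for each library (Ab, antibody, red; Iso, isotype, blue); the horizontal line marks a ratio of 1. C1qa over C1qb and Cd79a over Cd79b peak in Ab 4, at 6.66 and 7.92, while C1qb over C1qc lies between 0.887 and 2.04 throughout.

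The complement genes around C1q had a median log2 fold change of 0.29, with 0 of 18 past the threshold and 2 with an unadjusted limma p under 0.05. Those 2 were Serping1, the inhibitor of the C1 proteases, at 83.0 ± 31.9 against 39.3 ± 8.77 RPKM (SD, n = 5 per group; difference in log2 1.0, SE 0.26, adjusted p = 0.216 by limma), and Cd59a, which blocks the membrane attack complex. Cd59a stood at 23.3 to 31.3 RPKM in the antibody libraries and 16.0 to 22.6 RPKM in the isotype libraries, without overlap (log2 fold change 0.46, SE 0.13, adjusted p = 0.288 by limma). C1ra, the gene of the protease C1r, had a log2 fold change of 0.49 (SE 0.29).

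Among the genes that leukocytes share, Ptprc, the phosphatase CD45 found on all nucleated blood cells, stood at 2.69, 2.62, 1.14, 0.795 and 9.60 RPKM with the antibody and at 1.89, 1.52, 4.14, 0.958 and 4.41 RPKM with the isotype control. Cd52, a small surface glycoprotein that is abundant on lymphocytes, gave 14.9, 28.4, 17.8, 8.28 and 95.3 RPKM with the antibody and 13.6, 13.3, 31.1, 9.47 and 18.8 RPKM with the isotype control. Both were highest in antibody replicate 5. Laptm5, a lysosomal protein of blood cells, instead peaked in antibody replicate 2 at 16.6 RPKM and isotype replicate 8 at 16.3 RPKM, as the myeloid genes did. All 3 were lowest in antibody replicate 4. Their log2 fold changes were 0.08 (SE 0.52), 0.51 (SE 0.54) and 0.29 (SE 0.51; adjusted p = 0.990, 0.888 and 0.944 by limma).

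The T cell genes were near the limit of detection in most libraries. Cd3e, a signalling chain of the T cell receptor complex, stood at 0.329, 0.188, 0.132, 0.0951 and 1.76 RPKM with the antibody and at 0.110, 0.112, 0.282, 0.187 and 0.487 RPKM with the isotype control, an estimated 2.02 to 46.3 reads. Cd3g gave 0.635, 0.330, 0.185, 0.200 and 3.50 RPKM with the antibody and 0.846, 0.0788, 0.593, 0.131 and 0.76 RPKM with the isotype control. Antibody replicate 5 stood 3.62-fold and 4.14-fold above the next library. Cd3d, the chain encoded beside Cd3g on chromosome 9, ran from 0.237 to 1.82 RPKM. The co-receptor genes were lower still: Cd4 of helper T cells ran from 0.105 to 1.94 RPKM and Cd8a of cytotoxic T cells from 0.0382 to 0.464 RPKM, an estimated 2.0 to 26.1 reads. Cd3e, Cd4 and Cd8a fell under the minimum mean and were compared with the exact permutation test alone (p = 0.667, 0.881 and 0.952, two-sided, n = 5 each).

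Cd2, an adhesion receptor of T and NK cells, came nearest to a difference between the groups. It stood at 1.45, 1.24, 1.21, 0.657 and 6.84 RPKM with the antibody and at 0.481, 0.423, 0.707, 0.235 and 1.63 RPKM with the isotype control. Isotype replicate 10 exceeded 4 of the 5 antibody libraries, so the groups overlapped. The log2 fold change was 0.97 (95% interval -0.01 to 1.94, adjusted p = 0.716 by limma, exact permutation p = 0.0873, n = 5 each). Without antibody replicate 5 it was 0.53.

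All 6 T cell genes were highest in antibody replicate 5, at 5.37 to 13.2 times the median of the other antibody libraries. Of 27 other T and NK cell genes 26 had their highest value there too, the exception being the granzyme gene Gzma. All of the 8 that passed the minimum mean did, but that mean includes antibody replicate 5. A gene high there alone could thus pass by it, and the count of 8 adds no support. Lat stood at 2.23 RPKM there and at 0.510 RPKM or less elsewhere. Over all tested genes that library was the highest in 16.5%. Ccr7, a chemokine receptor of naive lymphocytes, stood there at 3.61 RPKM against 0.142 to 1.38 RPKM. Foxp3, the regulator of regulatory T cells, stood at 0.553 against 0.0460 to 0.154 RPKM. Both were chosen after their values were seen. No gene of the list passed between the groups. The smallest p fell to Thy1 (log2 fold change 0.53, SE 0.25), Lck, the kinase of the T cell receptor (0.44, SE 0.22), and the adaptor Lat (0.32, SE 0.34; adjusted p = 0.717, 0.754 and 0.888 by limma).

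The B cell genes were higher in level. Cd79a stood at 4.5, 3.77, 3.27, 5.87 and 31.6 RPKM with the antibody and at 20.7, 4.68, 10.5, 3.54 and 7.85 RPKM with the isotype control. Cd79b stood at 3.45, 2.60, 1.68, 0.741 and 7.82 RPKM with the antibody and at 3.42, 1.55, 4.56, 1.06 and 2.85 RPKM with the isotype control. Ms4a1, the surface protein CD20, gave 1.92, 1.87, 0.551, 0.598 and 5.14 RPKM with the antibody and 1.91, 1.53, 2.78, 0.294 and 2.72 RPKM with the isotype control. Antibody replicate 5 was highest in each of the 3, at 3.65 to 7.65 times the median of the other antibody libraries. The log2 fold changes were -0.26 (SE 0.59), 0.07 (SE 0.46) and -0.03 (SE 0.49; adjusted p = 0.958, 0.990 and 0.996 by limma).

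The partner chains of the B cell receptor did not keep a fixed ratio. Cd79a over Cd79b ran from 1.3 in antibody replicate 1 to 7.92 in antibody replicate 4 and 6.06 in isotype replicate 6. No other gene of the RefSeq table overlapped either of them. Of 19 genes of B and plasma cells 14 were highest in antibody replicate 5. Of the 17 tested 13 were, though the minimum mean that they passed includes that library. The B cell coactivator Pou2af1 reached 11.6 RPKM there against 0.408 to 2.79 RPKM elsewhere, and was chosen after its values were seen.

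None of those 17 passed between the groups. Jchain, which joins the units of secreted IgA and IgM, had a large but uncertain difference: 116, 89.7, 44.7, 38.3 and 85.8 RPKM with the antibody against 20.1, 7.75, 50.7, 11.6 and 48.7 RPKM with the isotype control (log2 fold change 1.65, SE 0.51, adjusted p = 0.376 by limma, exact permutation p = 0.0476, n = 5 each). It was not highest in antibody replicate 5, unlike Cd79a, Cd79b and Ms4a1. The B cell surface genes Cd72 and Fcer2a, chosen after their values were seen, were not either. They were highest in isotype replicates 10 and 8. Blnk, an adaptor of B cell signalling, had a log2 fold change of 0.80 (SE 0.23, adjusted p = 0.327 by limma), and Sdc1, the plasma cell and epithelial proteoglycan CD138, of -0.68 (SE 0.25, adjusted p = 0.586 by limma).

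Class II molecules present peptides to helper T cells and are made by macrophages, dendritic cells and B cells. H2-Aa and H2-Ab1 encode the chains of I-A, H2-Eb1 encodes the beta chain of I-E, and Cd74 encodes the invariant chain that guards their peptide groove. Their promoters are known for the X and Y boxes, which are read together by the RFX and NF-Y factors under the coactivator CIITA. The stretches below are shown because the class II genes moved together in these libraries. They are from RefSeq (GRCm38.p6), written 5′ to 3′ on the strand of the gene, with the letters GNAAC of the X box core and GATTGG of the Y box in capitals, for H2-Aa (chr17:34287847-34287934, minus strand), H2-Eb1 (chr17:34305746-34305832, plus strand) and H2-Ob (chr17:34238788-34238872, plus strand), the last encoding the beta chain of a regulator of peptide loading.
H2-Aa: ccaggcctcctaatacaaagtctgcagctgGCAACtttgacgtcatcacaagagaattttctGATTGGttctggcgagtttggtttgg
H2-Eb1: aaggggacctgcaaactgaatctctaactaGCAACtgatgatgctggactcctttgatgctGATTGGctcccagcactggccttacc
H2-Ob: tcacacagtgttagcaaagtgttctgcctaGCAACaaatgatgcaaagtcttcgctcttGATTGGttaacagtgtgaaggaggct

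The X letters started 32, 31 and 29 bases before the Y letters in these stretches, and the Y letters began 49, 60 and 58 bases before the annotated start. Windows of 300 bases around the start were searched on both strands for GNAAC followed on the same strand, 20 to 45 bases on, by GATTGG, letters that were chosen after these windows had been read; the motifs do not overlap each other. Of 10 class II pathway genes, 8 had a window and 6 held the pair, against 1.45% of all 32851 windows. Of the 18 leukocyte genes of the set with a window, H2-Aa, H2-Eb1 and Cd68 held it. A match is a description of the letters only.

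H2-Aa stood at 15.5, 19.2, 9.42, 6.33 and 47.2 RPKM with the antibody and at 24.1, 15.6, 25.5, 6.03 and 17.7 RPKM with the isotype control. H2-Eb1 stood at 6.12, 5.89, 3.76, 3.97 and 23.7 RPKM with the antibody and at 8.48, 4.2, 9.58, 2.38 and 8.0 RPKM with the isotype control. Cd74 gave 28.2, 28.4, 24.1, 12.4 and 85.5 RPKM with the antibody and 22.3, 28.7, 50.6, 13.5 and 33.2 RPKM with the isotype control. All were highest in antibody replicate 5, with isotype replicate 8 next, so the class II genes shared the top library of the lymphocyte genes and, below it, one of the top libraries of the myeloid genes. H2-Ab1 ran from 4.38 to 21.9 RPKM and was also highest in antibody replicate 5, but antibody replicate 1 was close behind at 19.4 RPKM. The log2 fold changes lay between -0.05 for H2-Aa and 0.18 for H2-Eb1 (adjusted p by limma from 0.961 to 0.993).

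Of 11 other tested genes of class II presentation none passed between the groups, with a median log2 fold change of -0.0019, and 7 were highest in antibody replicate 5. Without the minimum mean, which includes that library, 12 of 19 were highest in it. H2-Ob stood there at 2.95 RPKM against 0.128 to 1.66 RPKM in the other libraries (log2 fold change between groups -0.33, SE 0.43, adjusted p = 0.914 by limma). Rfx5, a DNA-binding subunit of the RFX complex, had the smallest p of the list at 13.1 ± 1.91 against 10.6 ± 1.13 RPKM (SD, n = 5 per group; difference in log2 0.29, SE 0.12, adjusted p = 0.649 by limma), followed by H2-DMa of the peptide exchange catalyst (0.43, SE 0.20, adjusted p = 0.716 by limma).

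**Figure D4:**
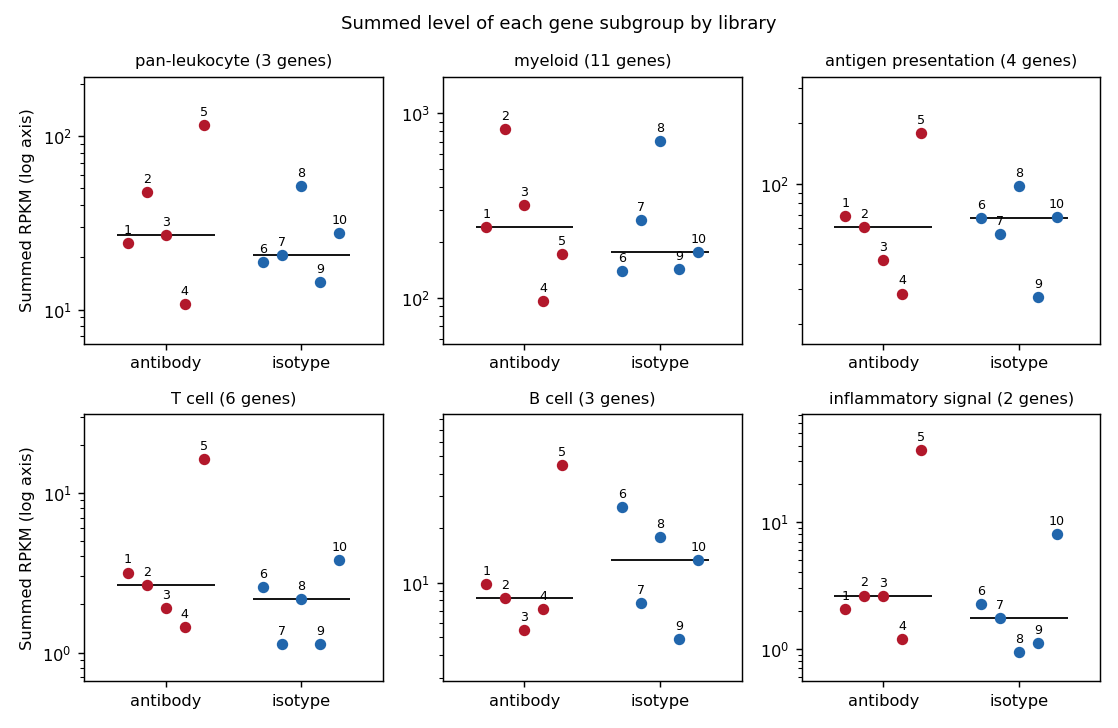
Summed RPKM of each subgroup (log axis) is plotted for every library, numbered as in the labels, with the group median as a line; antibody libraries are red and isotype libraries blue. Replicate 5 stands highest in 5 of the panels, while in the myeloid panel replicates 2 and 8 stand at 828 and 706 RPKM.

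Il6 and Cxcl9 had the largest standard errors of the set. Il6 stood at 1.9, 2.18, 2.37, 0.691 and 20.5 RPKM with the antibody and at 0.724, 1.34, 0.806, 0.926 and 7.72 RPKM with the isotype control, so 1 library of each group was high. The log2 fold change of 0.75 (SE 0.72, adjusted p = 0.878 by limma) was 0.09 without antibody replicate 5. Cxcl9 stood at 0.166, 0.450, 0.218, 0.498 and 16.5 RPKM with the antibody and at 1.52, 0.425, 0.141, 0.189 and 0.243 RPKM with the isotype control. Antibody replicate 5 was 10.8-fold above the next library and 117-fold above the lowest. The log2 fold change was 0.73 (SE 0.78, adjusted p = 0.888 by limma). The span of another RefSeq gene, A230098N10Rik, overlaps that of Il6, and the library kit does not mark the strand. Reads from stretches that both genes transcribe could thus not be told apart. Whether the exons of the genes overlap was not checked. The same holds for Laptm5, Csf1r, Cd74 and Ms4a1, whose spans other RefSeq genes also overlap.

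Genes around these signals showed the same library. Ifng, which encodes interferon gamma, was listed at 0 in 8 of 10 libraries, at 0.0560 RPKM in antibody replicate 2 and at 1.64 RPKM in antibody replicate 5. Cxcr3, the receptor for CXCL9, stood at 1.33 RPKM there and at 0.255 RPKM or less in the others; both genes were chosen after their values were seen. Of 33 other cytokine and chemokine genes 13 were highest in antibody replicate 5. Of the 27 tested 10 were, and none passed between the groups. Il18, an activator of interferon gamma release, had the smallest p (4.48 ± 0.547 against 3.22 ± 0.628 RPKM, SD, n = 5 per group; difference in log2 0.43, SE 0.14, adjusted p = 0.418 by limma). It was followed by Cxcl1, a neutrophil attractant (1.55, SE 0.84), and Cx3cl1, fractalkine (0.33, SE 0.20; adjusted p = 0.766 and 0.805 by limma).

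The receptors and transducers of IL-6 and CXCL9 varied less as a sum, at between 185 and 245 RPKM in all libraries. Abundant genes weigh most in that sum, among them Stat3 (43.1 to 78.6 RPKM) and Jak1 (37.2 to 47.9 RPKM). It does not describe the low genes Cxcr3 (0 to 1.335 RPKM) and Osmr (0.410 to 2.28 RPKM), which were chosen after their values were seen. None of the 11 tested genes of this list passed. The smallest p were those of Irf1, an interferon-induced transcription factor (27.1 ± 3.05 against 22.8 ± 1.77 RPKM, SD, n = 5 per group; difference in log2 0.24, SE 0.10), Stat3, the transducer of IL-6 (-0.21, SE 0.15), and the kinase Jak1 (-0.13, SE 0.10; adjusted p = 0.685, 0.845 and 0.862 by limma).

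Of the lists of other cells given in this paragraph, antibody replicate 5 was the extreme library in the endocrine sum alone. Its 16 islet endocrine genes summed to 283825 RPKM, the lowest of all libraries, against 317401 to 494716 RPKM in the others. Its 14 acinar genes, markers of the enzyme-secreting tissue around the islets, summed to 13895 RPKM, against 4359.5 to 9307 RPKM in the other antibody libraries and 3253 to 19290.5 RPKM in the isotype libraries. No acinar gene was at 0 in any library. Lymph node stroma and lymphatic vessel genes summed to 13.9 to 33.2 RPKM with the antibody and 15.7 to 28.2 RPKM with the isotype control, and 3 of 10 were highest in antibody replicate 5. One of these was Glycam1 of lymph node vessels (3.32 against at most 0.617 RPKM elsewhere, chosen after its values were seen). Ccl19, Ccl21a, Madcam1 and Lyve1 were instead highest in isotype replicate 6, and the rest in antibody replicate 2 or isotype replicate 8. Ccl21a, also chosen after its values were seen, stood at 3.13 RPKM in isotype replicate 6 and at 0.233 RPKM in antibody replicate 5. Ccl19, Ccl21a, Glycam1, Madcam1 and Cr2 were each at 0 in at least 1 library. The part of these cells in the lymphocyte pattern was not tested.

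Without antibody replicate 5 the median log2 fold change changed sign in 2 of the 6 subgroups, none of which held a called gene. That of the class II genes went from 0.10 to -0.27 and that of the genes leukocytes share from 0.29 to -0.0048. The other 4 kept their sign. The B cell median went from -0.03 to -0.39, the T cell median from 0.32 to 0.53, the latter resting on Cd2 alone, and the median of the inflammatory signals from 0.74 to 0.09, the last resting on Il6 alone because Cxcl9 then fell under the minimum mean. The myeloid median was 0.09 with that library and 0.11 without it.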

How the data were processed

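The authors deposited 1 table of RPKM values per gene and library. A Histopaque gradient was used to isolate the islets and a Nextera XT kit to build the libraries, per the labels' protocols. The submitters' processing notes name GRCm38, mm10, CASAVA 1.8.2 and FastQC without roles; which aligner, counter and annotation were used is not given in the sources used here. RPKM are not counts, so log2(RPKM + 0.5) was tested with limma 3.58.1 (R 4.3.3, variance trend) for 13450 genes averaging 0.5 RPKM or more, without further scaling. Two-sided exact permutation tests used all 252 assignments. Trimmed mean factors were computed in R. Levels, depth and plots used Python 3.11.15 (numpy 2.4.6, pandas 2.3.3, matplotlib 3.10.9).

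Depth was estimated from 15621 genes for which GENCODE M21 gives a single length among transcripts tied to RefSeq: the smallest depth that made low values whole reads. Between 71.6% and 74.9% lay within 0.1 of a whole read, a share partly set by the fit. Coordinates are from RefSeq's GRCm38.p6 table, which held all 29 genes. The limma and depth steps were tested on simulated data.

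The genes, their lists and the tests were chosen with earlier results of these data known. Named were all 29 genes and, from each other list, every gene past the threshold and up to 3 with the smallest p; other names are marked. Lists of ductal and endothelial markers were also read. The first had 1 fallen gene of 11 tested (Tspan1), the second 0 of 10. Alternatives were other pseudocounts (0.1, 1), filters (none, 5 RPKM), scalings and variance models, and leaving out libraries. Of the islet endocrine genes, Ttr and Gcg were among those that rose. Some genes that the rule names are not reported here.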

Additional observations from a re-analysis of the deposited data

Results flagged for a closer look

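Within each group of 5, the gap between the most extreme library and the next was compared with the group's range (critical value 0.71) for the 29 genes. Of 58 gene and group pairs 24 exceeded it. The critical value stands for about 5% by chance only where values are normally distributed. RPKM were used here without a log, so the chance share is not known. The genes share libraries, so these are not independent.

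Antibody replicate 5 accounted for 13: Ptprc (9.60 RPKM), Cd52 (95.3), Cd74 (85.5), H2-Eb1 (23.7), Cd3e (1.76), Cd3g (3.50), Cd3d (1.82), Cd2 (6.84), Cd4 (1.94), Cd8a (0.464), Cd79a (31.6), Il6 (20.5) and Cxcl9 (16.5 RPKM). All were high values.

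Isotype replicate 8 accounted for 7, also high: Laptm5 (16.3 RPKM), Lyz2 (441), Aif1 (5.16), Itgam (5.74), C1qb (44.1), C1qc (35.9) and Tyrobp (49.1 RPKM). Antibody replicate 2 stood apart in Lyz2 (541 RPKM), isotype replicate 6 in Cd8a (0.229 RPKM) and Cxcl9 (1.52 RPKM), and isotype replicate 10 in Il6 (7.72 RPKM).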

How the results depend on the processing

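No leukocyte gene was called in either direction in any of 21 alternatives (lowest limma adjusted p 0.170, Cd2 with array weights), and 0 or 1 had an unadjusted limma p under 0.05. With a minimum mean of 5 RPKM 14 of them were tested. Folds changed sign in 82 of 527 recomputed values, and the cause was not tested. This happened in 19 genes, whose main log2 fold changes ran from -0.26 (Cd79a) to 0.51 (Cd52). With 1 library left out, their log2 fold changes ran as follows: Ptprc -0.36 to 0.38, Laptm5 -0.0054 to 0.73, Cd52 -0.0048 to 0.86, Cd68 -0.011 to 0.68, Cd14 -0.25 to 0.30, Csf1r -0.061 to 0.64, Lyz2 -0.43 to 0.56, Aif1 -0.12 to 0.29, C1qb -0.45 to 0.37, C1qc -0.25 to 0.54, Tyrobp -0.50 to 0.24, Fcer1g -0.34 to 0.30, Cd74 -0.29 to 0.40, H2-Aa -0.45 to 0.25, H2-Ab1 -0.18 to 0.36, H2-Eb1 -0.26 to 0.37, Cd79a -0.81 to 0.074, Cd79b -0.28 to 0.40 and Ms4a1 -0.39 to 0.22. The lowest came without antibody replicate 2 (myeloid genes and Laptm5) or 5 (the others) except Cd14 (isotype replicate 6), the highest without antibody replicate 3 or 4 or isotype replicate 8 except Cd79a (isotype replicate 6). With median centring, quantile normalization and trimmed mean scaling the values were 0.0703, 0.0116 and 0.0499 for Aif1, 0.0608, 0.0614 and 0.054 for C1qb, 0.022, 0.0208 and 0.0155 for H2-Aa, and 0.0502, 0.0032 and 0.0227 for Ms4a1; a pseudocount of 0.1 gave 0.0087 for Aif1. Array weights gave -0.13 for Ptprc, 0.0083 for Aif1, 0.37 for C1qb, 0.29 for Tyrobp, 0.25 for Fcer1g, -0.11 for Cd74, -0.28 for H2-Ab1, -0.0331 for H2-Eb1 and -0.0129 for Cd79b. Without antibody replicate 5 and isotype replicate 10 together the values were -0.16 for Ptprc, 0.0228 for Tyrobp, -0.21 for Cd74, -0.17 for H2-Ab1, -0.15 for H2-Eb1 and -0.23 for Cd79b. No subgroup median moved by over 1 SD, that of the subgroup's mean log2 value between libraries of a group. Leaving out 1 of 5 libraries can hardly move a median that far, so this does not show stable medians. Over all genes, 53 risen became 23 with the 5 RPKM minimum and 121 with array weights, and 31 to 50 with 1 library left out (31 without isotype replicate 9, 32 without antibody replicate 2 or 3). The 2 fallen became 0 with the 5 RPKM minimum, 1 without a filter or without the variance trend, 5 with quantile normalization, 61 with array weights, 5 without antibody replicate 5 and isotype replicate 10, and 0 (without antibody replicate 1) to 20 (without isotype replicate 6) with 1 library left out. No paired analysis was possible because the groups share no replicate numbers. At these depths, T cell genes rest on few reads in most libraries.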

Other observations

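Of 16 granulocyte and mast cell genes, 4 were highest in isotype replicate 8 (S100a8, S100a9, Camp and Ngp), a library that was also high in the myeloid genes. The other 12 peaked elsewhere, among them the neutrophil genes Ly6g and Elane in isotype replicate 10, Csf3r and Retnlg in antibody replicate 2, Cxcr2 in antibody replicate 3 and Mpo in antibody replicate 5. S100a8, a calcium-binding protein that neutrophils hold in quantity, stood there at 10.7 RPKM against 0.174 to 2.41 RPKM in the other libraries, and its partner S100a9 at 8.54 against 0 to 3.99 RPKM. The list had 0 of 5 tested genes past the threshold (limma; 0 at an unadjusted p under 0.05) and a median log2 fold change of -0.20; 12 of its 16 genes were at 0 in at least 1 library.

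Antibody replicate 3 was highest in another set of inflammatory genes. Nos2, the inducible nitric oxide synthase, stood at 4.48 RPKM there and at 0.718 RPKM or less in the other 9 libraries. Cxcl1 stood at 37.1 RPKM there, with antibody replicate 5 next at 18.6 RPKM, and Ccl2, which draws monocytes, at 19.0 RPKM with antibody replicate 2 next at 12.2 RPKM. Il1b, which encodes interleukin 1 beta, instead was highest in antibody replicate 5 (7.84 RPKM) and isotype replicate 10 (4.92 RPKM), the libraries that were also highest in Il6. These genes were chosen after their values were seen.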
